A study of Mus musculus with 8 samples.

Results

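A set of 6 genes associated with cortical glutamatergic neurons, the excitatory projection neurons of the forebrain, was followed here. These are Slc17a7 and Slc17a6, which encode vesicular glutamate transporters, Nrgn, which encodes the postsynaptic protein neurogranin, and Neurod2, Neurod6 and Tbr1, which encode transcription factors. The genes were chosen by symbol, and each symbol was matched to 1 Ensembl identifier. All 6 genes were found among the 22430 genes of the count table, and all 6 were among the 9375 genes that held a mean of more than 5 counts per library and were tested.

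Tissue was taken from 8 males of the inbred mouse strain C57Bl/6JRj, 4 of them young adults at 6 months of age (6m) and 4 aged mice at 24 months (24m), and the sources used here name no transgene or treatment. RNA of a homogenised brain hemisphere of each mouse was sequenced with Oxford Nanopore direct RNA sequencing, in which RNA molecules themselves pass through the pore. The paper describes its RNA as enriched for poly(A), and each mouse gave 1 library. The cortex was not dissected, and a level therefore refers to the RNA read from the whole hemisphere.

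Glutamatergic neurons load glutamate into synaptic vesicles through a vesicular transporter. Slc17a7 encodes VGLUT1, the transporter of most neurons of the cortex and hippocampus and of the granule cells of the cerebellum, whereas Slc17a6 encodes VGLUT2, the transporter of most glutamatergic neurons of the thalamus, hypothalamus and brainstem. Neurogranin binds calmodulin in dendritic spines and is abundant in forebrain neurons. Neurod2 and Neurod6 are basic helix-loop-helix (bHLH) factors, which bind short DNA motifs called E-boxes, and Tbr1 is a T-box factor of deep-layer cortical neurons. In RNA from whole tissue, a lower or higher number of such neurons and a lower or higher amount of RNA per neuron cannot be told apart.

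Counts on genes added up to between 573152 and 843706 in the young adult libraries and to between 660398 and 1255424 in the aged libraries. At these depths, a limit of 3 counts corresponded to between 2.30 and 5.42 CPM, the counts scaled to a common library size after edgeR's TMM scaling. A gene was called changed where edgeR's quasi-likelihood test gave an adjusted p (padj, Benjamini-Hochberg over all genes tested) of at most 0.05 and the absolute log2 fold change between 24m and 6m (log2FC) was at least 0.58. By this rule 1359 genes changed, of which 968 were higher and 391 lower in the aged brain, and the median log2FC of all genes tested was -0.003. The higher genes made up 71.2% of the changed genes, against 84.5% with library sizes alone, 59.2% with limma-voom after quantile normalization and 56.7% with the adjusted p alone. With library sizes alone, the median log2FC of all genes moved to 0.10.

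The members include a pair of transporters and a pair of bHLH factors with related coding sequences, so their sequences show how far a read can tell the members of a pair apart. In the GENCODE vM39 annotation of the mouse genome build GRCm39, the coding sequence of Slc17a7 (1683 bases) was identical to that of Slc17a6 (1749 bases) at 71.7% of 1683 aligned positions. The most similar stretch of 60 aligned bases, coding bases 232 to 291 of Slc17a7 and 256 to 315 of Slc17a6, held 5 mismatches, which are in capitals.
Slc17a7: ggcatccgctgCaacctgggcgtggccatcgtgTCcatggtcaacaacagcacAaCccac
Slc17a6: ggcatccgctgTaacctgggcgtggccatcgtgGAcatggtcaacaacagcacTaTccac
The longest run of identical bases between these transporters was 21 bases.

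The coding sequences of Neurod2 (1152 bases) and Neurod6 (1014 bases) were identical at 63.4% of 1009 aligned positions. Their most similar stretch of 60 bases, coding bases 397 to 456 of Neurod2 and 313 to 372 of Neurod6, held 12 mismatches, again in capitals.
Neurod2: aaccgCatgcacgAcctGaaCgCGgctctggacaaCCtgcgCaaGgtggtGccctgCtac
Neurod6: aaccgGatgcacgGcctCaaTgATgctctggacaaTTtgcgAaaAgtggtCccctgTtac
Here the longest identical run was 11 bases. None of the 6 genes had a near-identical copy among the annotated transcripts, defined as an identity of at least 95% over at least 50% of the canonical transcript. Of the 6, Nrgn alone shared exon bases with another gene of the table, 1219 bases with Vsig2 on the opposite strand, and Vsig2 held between 2 and 13 counts per library. All members except Tbr1 also share exon bases with opposite-strand noncoding genes that were not in the table, so their reads cannot be told apart from antisense reads if the counting did not use strand.

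Of the 6 members, Slc17a7 and Tbr1 rose in the aged brain and none fell by edgeR's test. At an unadjusted p under 0.05 none fell either, and none fell with DESeq2 or limma-voom. Among all genes tested, 10.3% rose and 4.17% fell. Slc17a7 was 1.5-fold higher and Tbr1 1.75-fold higher. Neurod2 had a fold of similar size, 1.76, but did not pass the test, and the levels of Nrgn, Neurod6 and Slc17a6 moved by less than the spread between libraries. The fitted log2FC was above 0 for all 6, with a median of 0.37, but with limma-voom after quantile normalization that of Slc17a6 (-0.12) and Neurod6 (-0.057) was below 0, and so was that of Neurod6 with DESeq2 (-0.0099). The ages did not overlap for 1 of the 6, Slc17a7, and 11.1% of all genes tested had non-overlapping CPM with the aged libraries above.

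**Figure D1:**
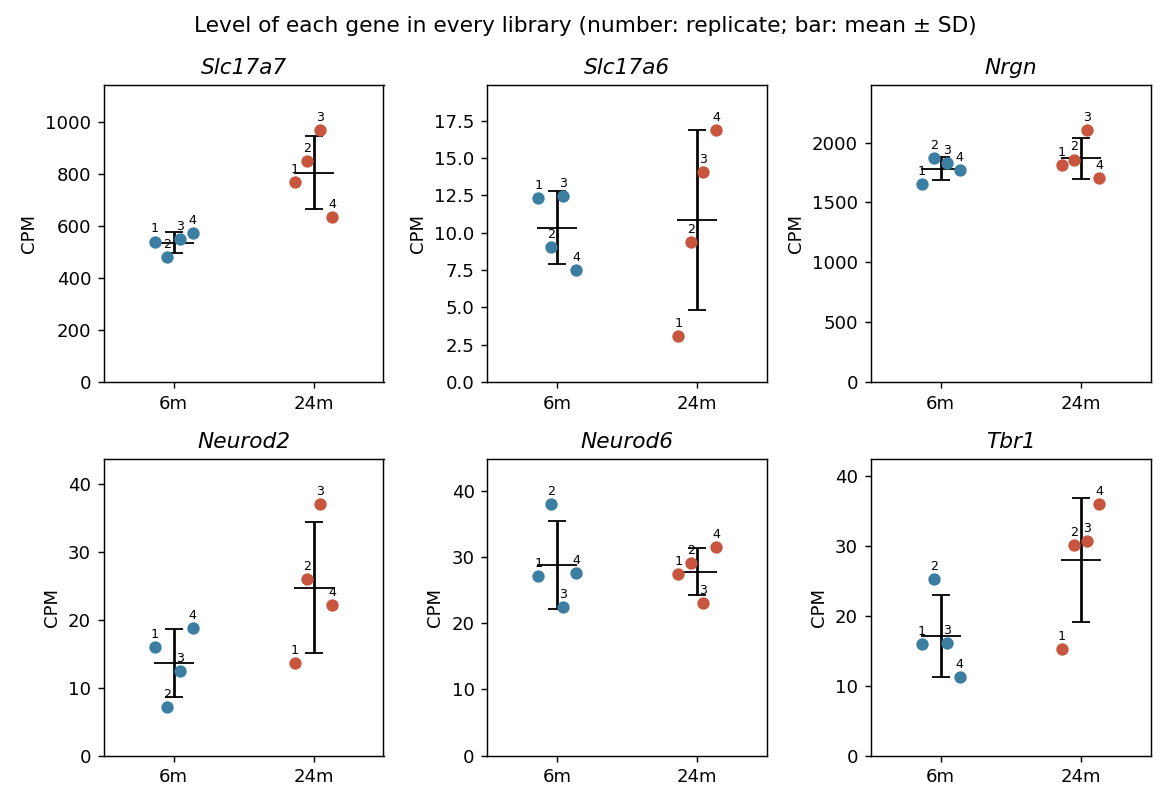
Level of each of the 6 genes in every library, in CPM on TMM-scaled library sizes (vertical axes, each starting at 0), for young adult (6m, blue) and aged (24m, red) mice. Numbers beside the points are replicate numbers and bars are the mean ± SD (n = 4 per age). The 4 aged libraries lie above all young adult libraries for Slc17a7 alone, and aged replicate 1 lies among the young adult libraries for Neurod2 and Tbr1.

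Slc17a7 (ENSMUSG00000070570, GRCm39, chr7:44813305-44825644, plus strand) had 540.4, 479, 551 and 573 CPM in young adult replicates 1 to 4. In aged replicates 1 to 4 it had 768, 850.4, 969 and 635 CPM. All aged libraries lay above all young adult libraries, and aged replicate 4, the deepest library, was the lowest of the aged ones. The mean ± SD rose from 536 ± 40.1 CPM in the 4 young adult mice to 806 ± 140.3 CPM in the 4 aged mice, which placed this transporter above 97.1% of the genes tested. The log2FC was 0.58 (SE 0.11, 95% interval 0.36 to 0.80, padj = 0.000395 by edgeR's quasi-likelihood test), and its fold of 1.5 had an interval of 1.29 to 1.74.

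The log2FC of Slc17a7, 0.5814 before rounding, lay just above the minimum of 0.58 and 83.4% of the genes tested had a lower value. The padj stayed at or under 0.05 in all 18 alternatives, at most 0.00348. With 1 library left out, the log2FC dropped under the minimum, and the gene was then not called, without young adult replicate 2 (0.54), without aged replicate 2 (0.56) and without aged replicate 3 (0.49).

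Slc17a6 (ENSMUSG00000030500, chr7:51271434-51320867, plus strand) was close to the detection limit in this tissue. It held 10, 5, 10 and 6 counts in young adult replicates 1 to 4 and 2, 9, 11 and 22 counts in aged replicates 1 to 4, or 12.3, 9.04, 12.4 and 7.53 CPM against 3.05, 9.36, 14.1 and 16.9 CPM. The aged libraries held both the lowest and the highest value. Mean levels were 10.3 ± 2.44 CPM and 10.8 ± 6.05 CPM, and the log2FC of 0.15 had an interval from -0.66 to 0.96 (padj = 0.831 by edgeR's quasi-likelihood test), so that changes in either direction were not resolved at this depth.

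A share within a library needs no scaling between libraries. Slc17a7 made up 97.8%, 98.1%, 97.8% and 98.7% of the counts of both transporters in the young adult replicates and 99.6%, 98.9%, 98.6% and 97.4% in the aged replicates. The share of aged replicate 1, 504 of 506 counts, had a 95% Clopper-Pearson interval of 98.6% to 99.95%, and that of aged replicate 4, 828 of 850 counts, one of 96.1% to 98.4%, so these aged libraries differed from each other by more than counting error. The intervals cover counting error only. The mean share was 98.1 ± 0.434% at 6m and 98.6 ± 0.916% at 24m, a difference of 0.520 percentage points that did not exceed the spread within the ages (two-sided exact permutation p = 0.343, where the smallest p that 4 against 4 libraries allow is 0.0286).

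The third vesicular glutamate transporter of the family, Slc17a8, which scattered neurons and hair cells use, held 0 counts in every library, which allows up to 3 counts per library. For Slc17a7 and Slc17a6, the bases before the transcription start are shown in GRCm39, with the E-box motif CANNTG in capitals, since the tested factors of the bHLH family bind this motif. The stretch of Slc17a7 (chr7:44813074-44813304, 231 bases) lies just before the annotated start of the gene, and that of Slc17a6 (chr7:51271184-51271433) holds 250 bases.
Slc17a7: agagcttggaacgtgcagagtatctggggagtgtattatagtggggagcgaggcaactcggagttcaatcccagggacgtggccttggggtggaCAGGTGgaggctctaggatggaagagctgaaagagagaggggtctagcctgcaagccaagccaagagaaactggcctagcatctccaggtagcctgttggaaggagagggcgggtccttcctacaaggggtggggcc
Slc17a6: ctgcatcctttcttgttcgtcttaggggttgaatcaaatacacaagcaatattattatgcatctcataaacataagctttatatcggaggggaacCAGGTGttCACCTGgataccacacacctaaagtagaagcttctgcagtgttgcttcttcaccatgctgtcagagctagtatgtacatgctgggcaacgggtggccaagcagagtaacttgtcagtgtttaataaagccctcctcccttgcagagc
In the 250 bases before the start of the canonical transcript, CANNTG occurred 1 time for Slc17a7, 2 times for Slc17a6, 3 times each for Neurod2 and Neurod6, 1 time for Tbr1 and not at all for Nrgn. The windows of Tbr1 and Nrgn lie wholly inside the annotated extent of their genes, which starts further upstream, and so does the end of that of Slc17a7 (19 bases). At least 1 such motif, read on both strands since its pattern is its own reverse complement, occurred in 59.9% of the 9321 windows of tested protein-coding genes, and 3 or more occurred in 7.87%. The more specific form CAGATG, searched on both strands and contained in CANNTG, was in the windows of Neurod2 and Neurod6, and in 11.2% of those of tested genes. The T-box motif GGTGTGA was in none of the 6 windows, and in 3.05% of those of tested genes. These are matches of letters, and binding was not measured.

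Nrgn (ENSMUSG00000053310, chr9:37452275-37464689, minus strand), the most abundant member, had 1649, 1869.7, 1831 and 1772 CPM in young adult replicates 1 to 4. In aged replicates 1 to 4 it had 1812, 1858, 2103 and 1701 CPM. Aged replicate 3 was above all young adult libraries, and the other aged libraries lay within the young adult range. The mean was 1780.4 ± 96.2 CPM at 6m and 1868 ± 169.6 CPM at 24m, and the gene ranked above 99.4% of the genes tested. With 5256 and 6836 counts in all at the 2 ages, its log2FC of 0.07 had a narrow interval, from -0.11 to 0.25 (padj = 0.619 by edgeR's quasi-likelihood test), which excludes the minimum of 0.58. With limma-voom after quantile normalization, the log2FC of Nrgn was 0.30 (padj = 0.0159 by limma-voom), above this interval but under the minimum. Slc17a7 is expressed by the same forebrain neurons, and in edgeR's fit the interval of its log2FC did not overlap that of Nrgn. The difference between these log2FC was not itself tested.

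Of the transcription factors, Tbr1 (ENSMUSG00000035033, chr2:61633274-61644458, plus strand) had 16, 25.3, 16.2 and 11.3 CPM in young adult replicates 1 to 4 and 15.2, 30.2, 30.7 and 36.1 CPM in aged replicates 1 to 4. Of the aged libraries, 3 lay above all young adult ones, and aged replicate 1 lay within the young adult range. The mean was 17.2 ± 5.86 CPM at 6m and 28 ± 8.94 CPM at 24m (log2FC 0.81, SE 0.28, 95% interval 0.23 to 1.38, padj = 0.0403 by edgeR's quasi-likelihood test). The fold of 1.75 had an interval of 1.17 to 2.61 and rested on 49 counts at 6m and 110 counts at 24m. The direction was the same in all 18 alternatives, but the call was lost in 9 of them, among them without young adult replicate 1 (padj = 0.0937), 3 (0.088) or 4 (0.137) and without aged replicate 2 (0.0956), 3 (0.0829) or 4 (0.146), and with DESeq2 (0.126).

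Neurod2 (ENSMUSG00000038255, chr11:98216241-98220480, minus strand) had 16, 7.23, 12.4 and 18.8 CPM in young adult replicates 1 to 4 and 13.7, 26, 37.1 and 22.2 CPM in aged replicates 1 to 4. As for Tbr1, the aged replicates 2, 3 and 4 lay above all young adult libraries and aged replicate 1 did not. The mean was 13.6 ± 5.0 CPM at 6m and 24.8 ± 9.70 CPM at 24m, with a log2FC of 0.81 (SE 0.31, 95% interval 0.18 to 1.45) and padj = 0.0593 by edgeR's quasi-likelihood test, just over the threshold. Without aged replicate 1 the log2FC was 0.97 and Neurod2 passed (padj = 0.0149). It also passed with library sizes alone (0.0402), with edgeR's filterByExpr (0.0475) and with no filter on low counts (0.036).

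Neurod6 (ENSMUSG00000037984, chr6:55654807-55658326, minus strand), the relative of Neurod2, had 27.1, 38.0, 22.4 and 27.6 CPM in young adult replicates 1 to 4 and 27.4, 29.1, 23.0 and 31.4 CPM in aged replicates 1 to 4. All aged libraries lay within the young adult range, and young adult replicate 2 was the highest of all 8. The mean was 28.8 ± 6.57 CPM at 6m and 27.8 ± 3.55 CPM at 24m, and the log2FC of 0.00 had an interval from -0.41 to 0.41 (padj = 0.999 by edgeR's quasi-likelihood test). The interval lies inside 0.58 in either direction, but its standard error (0.20) was derived from a log2FC near 0 and is uncertain. DESeq2 gave a larger standard error (0.30), so the exclusion of a change of 0.58 is not firm. The direction of the log2FC turned with the setting, to -0.0099 with DESeq2 and -0.057 with limma-voom, and leaving out 1 library gave values between -0.10 and 0.14.

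**Figure D2:**
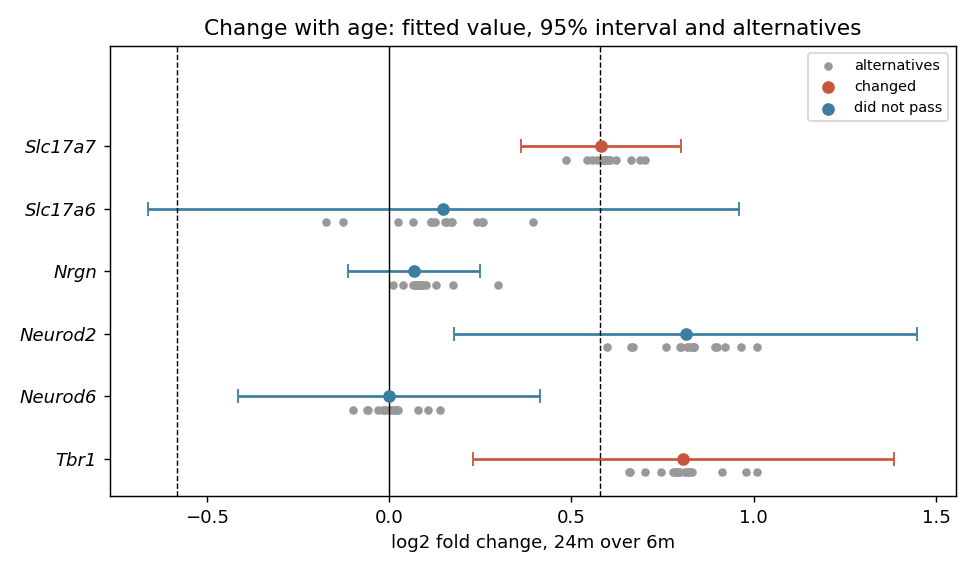
Log2 fold change of each of the 6 genes between 24m and 6m (horizontal axis) by edgeR's quasi-likelihood fit of all 8 libraries, with bars for the 95% interval, red where the gene was changed and blue where it did not pass. Grey points under each bar are the values in the alternatives and dashed lines mark the minimum of 0.58. Slc17a7 sits on the minimum with the narrowest interval of the changed genes, and the intervals of Nrgn and Neurod6 lie inside the dashed lines.

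Direct RNA reads come from single molecules, so mean CPM can be compared between genes without division by length. In mean CPM at 6m, the order was Nrgn, Slc17a7, Neurod6, Tbr1, Neurod2 and Slc17a6. CPM divided by the length of the canonical transcript in kb are also given, and this division lowers long transcripts. Per kb, the order at both ages was Nrgn, Slc17a7, Neurod6, Neurod2, Tbr1 and Slc17a6. Nrgn had 589 ± 31.8 CPM per kb at 6m and 618 ± 56.1 at 24m, Slc17a7 had 176 ± 13.2 and 265 ± 46.1, and Neurod6 had 12.9 ± 2.95 and 12.5 ± 1.59. The transcription factors were thus more than an order of magnitude under the transporter and neurogranin. Neurod2, with 4.33 ± 1.59 at 6m and 7.87 ± 3.08 at 24m, and Tbr1, with 4.32 ± 1.47 and 7.05 ± 2.25, did not differ beyond their spread at either age. Neurod6 and Neurod2 were apart at 6m (10.1 to 17.0 against 2.30 to 5.98 CPM per kb over the libraries) and overlapped at 24m (10.3 to 14.1 against 4.36 to 11.8). Slc17a6 was the lowest, with 2.32 ± 0.548 and 2.43 ± 1.36. The order of the transcription factors depends on the division by length, since in mean CPM as counted Tbr1 was above Neurod2 at both ages and, at 24m, next to Neurod6 (28.04 and 27.76 CPM), all within their spread.

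Neuronal RNA as a whole can serve as a reference inside each library. The summed level of 10 genes that most neurons express was 4285 ± 63.1 CPM at 6m and 4550.4 ± 140.5 CPM at 24m (two-sided exact permutation p = 0.0286, the smallest that this design allows). Against this sum, the log2 level of Slc17a7 was 0.49 higher at 24m, with all aged libraries above all young adult ones, and that of Nrgn differed by -0.02. The exact two-sided permutation p of Slc17a7 was 0.0286, the smallest possible, and 0.171 after Benjamini-Hochberg adjustment over the 6 members. A single member cannot get below this adjusted value in this design, so the adjusted p could not pass whatever the size of the difference. Neurod2 and Tbr1 differed by 0.77 and 0.61 on the log2 scale with 3 of 4 aged libraries above all young adult ones (adjusted exact permutation p = 0.343 and 0.457), Neurod6 by -0.12 and Slc17a6 by -0.24 (0.857 for both).

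This comparison depended on the neuronal genes chosen. The largest terms of the sum were Uchl1, a neuronal ubiquitin hydrolase, Tubb3, a neuronal tubulin, and Eno2. At 6m and 24m, Uchl1 had 1813 ± 82.4 and 1573 ± 21.9 CPM, and Tubb3 had 934 ± 9.18 and 762 ± 142.3 CPM. Eno2 had 650 ± 64.3 and 854 ± 147.9 CPM. The log2FC of Uchl1, Tubb3 and Eno2 were -0.20, -0.30 and 0.38, and none of these genes was called changed. Among the other genes of this list, the synaptic genes Snap25 (log2FC 0.77) and Syp (0.97) rose and the dendritic gene Map2 fell (-0.91), whereas without young adult replicate 3, 4 of the 10 genes rose and none fell. Against Snap25 alone, Slc17a7 differed by -0.11, Nrgn by -0.62, Neurod6 by -0.72, Slc17a6 by -0.84, Neurod2 by 0.18 and Tbr1 by 0.01. Against the median log2 level of the 10 genes, Slc17a7 differed by 0.02, and Nrgn and Neurod6 by -0.49 and -0.59 with all aged libraries under all young adult ones (exact permutation p = 0.0286 for both and 0.0857 after adjustment, the smallest that a pair of members can reach).

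**Figure D3:**
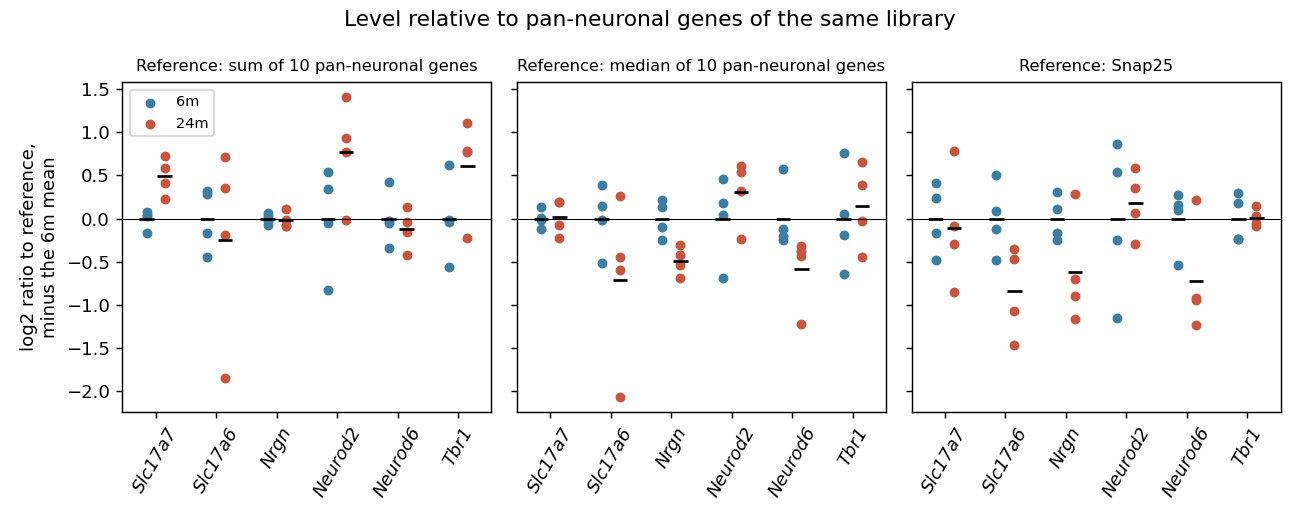
Log2 ratio of each of the 6 genes to a neuronal reference of the same library, minus the mean of the young adult libraries (vertical axis), for the sum of 10 pan-neuronal genes (left), the median of their log2 levels (middle) and Snap25 alone (right). Points are libraries, blue for 6m and red for 24m (n = 4 per age), and black lines are means. Slc17a7 lies 0.49 above the young adult mean against the sum and -0.11 from it against Snap25.

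Further genes of forebrain glutamatergic neurons were read from the same fit. Of 28 listed genes 24 were tested, of which 10 rose and 1 fell, where 10.3% of all genes tested rose and 4.17% fell. The median log2FC of the list was 0.51 against -0.003 for all genes tested. This list, like the others, was chosen with earlier results of these data known, so the comparison is not an independent test. The largest rises were those of Hpcal4, a neuronal calcium sensor (10.3 ± 4.76 to 58.6 ± 22.4 CPM, log2FC 2.54), Nptxr, the neuronal pentraxin receptor (20.04 ± 1.63 to 92.9 ± 34.3 CPM, log2FC 2.20), and Mpped1 (13.7 ± 0.939 to 44.8 ± 6.34 CPM, log2FC 1.67). The value of Nptxr is uncertain, since it shares 890 exon bases on the same strand with Npcd. The other genes that rose were Camk2a (1.64), the pentraxin Nptx1 (1.6), the vesicle protein Sv2b (1.53), Rgs4 (1.47), a regulator of G-protein signalling, and the transcriptional regulators Zbtb18 (1.44), Bhlhe22 (1.41) and Tle4 (1.34).

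The gene of this list that fell was Bcl11b, a transcription factor of subcortical projection neurons and of striatal neurons (13.8 ± 4.09 to 5.19 ± 0.854 CPM, log2FC -1.43). With edgeR's filterByExpr it was not among the changed genes. At an unadjusted p under 0.05, 12 genes of this list were higher and 2 lower. Mef2c went from 10.4 ± 3.37 to 5.20 ± 1.52 CPM and did not pass (log2FC -0.98, padj = 0.082 by edgeR's quasi-likelihood test). Emx1 (log2FC 0.65, padj = 0.0641) and Fezf2 (-0.34, padj = 0.432), both transcription factors of cortical projection neurons, did not pass edgeR's quasi-likelihood test. Neurod1, a relative of Neurod2, did not pass this test either (0.57, padj = 0.319). Rorb and Foxp2, layer markers of the cortex, were at or near 0 with at most 2 counts in any library, and Rasgrf2 held at most 11, so these genes stayed under the filter. The number of genes that rose was between 8 and 11 in all alternatives.

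Of 12 listed genes of thalamic and midbrain glutamatergic neurons, where Slc17a6 is the main transporter, 5 were tested, and none changed by edgeR's quasi-likelihood test, DESeq2 or limma-voom. At an unadjusted p under 0.05, 1 was higher and 1 lower, and the median log2FC was -0.10. Zic1 had the highest value (0.72, padj = 0.102), and without young adult replicate 4, 1 gene of this list rose.

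The glutamate cycle returns released glutamate to neurons through glia. Of 15 listed genes 14 were tested, of which 4 rose and 1 fell (median log2FC 0.29). Slc1a3, the astrocytic glutamate transporter GLAST, rose from 24.7 ± 3.23 to 76.3 ± 23.1 CPM (log2FC 1.65), and Glul, the glutamine synthetase of astrocytes, from 328 ± 58.5 to 516 ± 35.1 CPM (0.65). The glutamine transporter gene Slc38a2 also rose, from 5.09 ± 2.70 to 13.4 ± 1.5 CPM (1.39), and so did Got2, a mitochondrial aminotransferase, from 177 ± 20.3 to 277 ± 57.6 CPM (0.64). The gene that fell was Slc1a2, the astrocytic transporter GLT-1 (56.7 ± 7.54 to 37.7 ± 3.87 CPM, log2FC -0.59). Its call was lost without young adult replicate 4 and without aged replicate 3 or 4, and with library sizes alone, DESeq2 and the other filters, so that 0 genes fell there. Gls2, which encodes a glutaminase, did not pass (log2FC -0.31).

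Neurogranin holds calmodulin and so meets the calcium-dependent enzymes of the spine. All 15 listed partners were tested, of which 3 rose and 1 fell (median log2FC 0.26), while Nrgn itself had a log2FC of 0.07. Those that rose were Camk2a (20.2 ± 2.83 to 64.9 ± 23.9 CPM, log2FC 1.64) and Camk2b (55.0 ± 13.0 to 131 ± 22.8 CPM, 1.23), subunits of calmodulin-dependent kinase II, and Ppp3r1, the regulatory subunit of calcineurin (43.0 ± 4.25 to 100.4 ± 20.2 CPM, 1.26). Prkcb, which encodes a protein kinase C, the kinase family that phosphorylates neurogranin, fell from 291 ± 30.7 to 183 ± 40.8 CPM (-0.65). Calm3, which encodes calmodulin, passed edgeR's adjusted p but not the minimum (log2FC 0.56, padj = 2.16e-05), and Calm2, which encodes the same protein, had a log2FC of 0.09. The related proteins Gap43 (-0.11) and Pcp4 (-0.30) were not called changed. Ppp3r1 shares 462 exon bases on the same strand with Dnaaf10, and Camk2b shares 1813 on the opposite strand with Ykt6, so their values are uncertain. Without young adult replicate 2 and without aged replicate 1, 5 of the listed genes rose, and without aged replicate 1 none fell. With library sizes alone 6 rose and 0 fell, and 5 rose with limma-voom and with filterByExpr.

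Of 15 listed genes that include relatives, dimer partners and co-factors of the 3 transcription factors, 10 were tested and 1 rose by edgeR's test (median log2FC 0.24). None fell there or with DESeq2, 1 fell with limma-voom, and 1 was lower at an unadjusted p under 0.05. The gene that rose was Id4, which encodes an inhibitor of bHLH factors (32.6 ± 1.86 to 51.8 ± 9.51 CPM, log2FC 0.69). It did not pass without aged replicate 4, and without aged replicate 1 the count was 2. Tcf4, a dimer partner of NeuroD factors, had the lowest value (log2FC -0.80, padj = 0.0574 by edgeR's quasi-likelihood test). Eomes, the T-box relative of Tbr1 in progenitor cells, held at most 3 counts in any library.

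**Figure D4:**
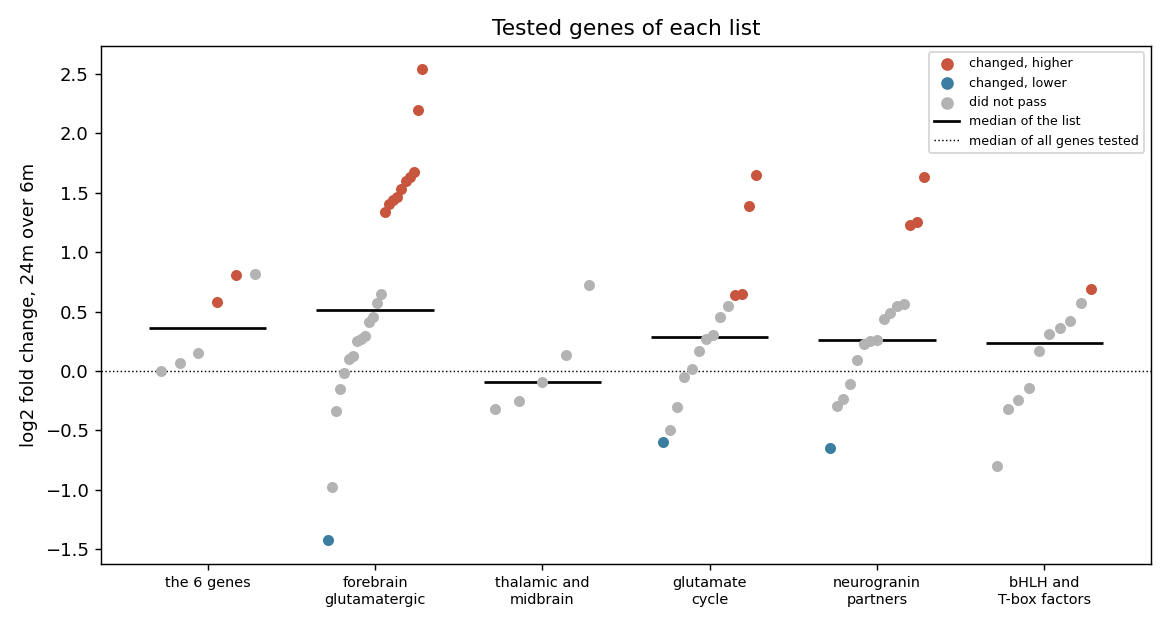
Log2 fold change between 24m and 6m (vertical axis) of every tested gene of the 6 members and of 5 gene lists, each point 1 gene, red or blue where it was changed and higher or lower and grey where it did not pass. Black lines are the median of each list and the dotted line is the median of all genes tested (-0.003). The forebrain glutamatergic list has 10 genes above the members' highest value and 1 changed gene under 0.

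Markers of other cell types moved between the ages as well. Cerebellar granule cells also use Slc17a7 and Neurod2. Of 9 listed markers of these cells 8 were tested, 3 rose (Cbln1, Cbln3 and Zic2) and all 8 had a log2FC above 0 (median 0.73), and their summed level was 114 to 231 CPM at 6m and 267 to 357 CPM at 24m. Without aged replicate 1, the library in which Neurod2 and Tbr1 were low, 6 of them rose. Of the oligodendrocyte markers 2 of 8 rose, among them Mbp, with sums of 2070.4 to 2633 CPM at 6m and 2873 to 3726 CPM at 24m, and 4 rose without young adult replicate 3 or aged replicate 1.

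Among the other marker lists, the microglial sum was 684 to 758 CPM at 6m and 860 to 1091 CPM at 24m, with 1 of 7 tested markers higher. The astrocytic sum overlapped between the ages (2553 to 3038 against 2568 to 3303 CPM) with 3 of 7 higher and 1 lower. Most of this sum was Aldoc (2341 ± 209 and 2148 ± 326 CPM), which was not called changed. The astrocytic markers that rose were Gfap (log2FC 1.94), Slc1a3 (1.65) and Gja1 (1.42). All 5 blood genes fell, of which the globin genes have close copies that can share reads, with sums of 6090 to 10032 CPM at 6m and 3350.4 to 6283 CPM at 24m. No microglial marker rose with DESeq2 or without young adult replicate 3 or aged replicate 3, and 2 rose with library sizes alone or without aged replicate 4. Without young adult replicate 3 and with limma-voom, 3 blood genes fell. The astrocytic marker that fell was Slc1a2, whose call was lost as described above. Of the markers of GABAergic interneurons and of striatal projection neurons, 1 of 8 tested rose in each list, Gad1 in the first, and the median log2FC was -0.09 and 0.06. None fell by edgeR, DESeq2 or limma-voom, and 1 in each list was lower at an unadjusted p under 0.05. Without aged replicate 4, Gad1 was not called. None of the 3 tested endothelial and the 3 tested choroid plexus markers were called changed by edgeR or DESeq2, although Ly6c1, an endothelial marker, passed edgeR's adjusted p (padj = 0.0150) with a log2FC of -0.578 that missed the minimum. In each of these lists 1 marker was lower at an unadjusted p under 0.05. With 1 library left out, 1 endothelial marker fell without young adult replicate 2 or 3 or aged replicate 1 or 3 and 1 choroid plexus marker fell without young adult replicate 3 or aged replicate 1, and limma-voom called 1 endothelial marker. The microglial marker Cx3cr1 was near 0, with at most 3 counts in any library. The part of these cell types in the levels of the 6 members was not tested.

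The 6 transcripts differed in length and in GC content. Canonical transcripts were between 2228 bases (Neurod6) and 4457 bases (Slc17a6) long. The GC content of Slc17a7 (59.3%) and Neurod2 (58.7%) was higher than that of 90.6% and 88.4% of the tested transcripts. That of Tbr1 (51.9%) and Nrgn (52.0%) lay near the middle, and that of Slc17a6 (43.8%) and Neurod6 (42.1%) exceeded no more than 11% and 6.13% of them. When all tested transcripts were divided into 5 groups of equal size by GC content, the median log2FC of the groups was between -0.03 and 0.03. The shares of changed genes differed more between these groups. In the group of lowest GC content, which holds Slc17a6 and Neurod6, 6.95% of genes rose and 7.59% fell. In that of highest GC content, which holds Slc17a7 and Neurod2, 10.9% rose and 2.46% fell. By length, the median log2FC was -0.15 in the shortest group and -0.02 in the next, which holds Neurod6. It was 0.10 in the middle group, which holds Slc17a7, Nrgn and Neurod2. In the next longer group, which holds Tbr1 and Slc17a6, it was 0.11, and in the longest group 0.04.

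For the 3 members with a mean of at least 20 counts, the tested genes with the most similar profile over the 8 libraries were found by the root mean square distance of centred log2 CPM, among 5163 genes. Closest to Slc17a7 were Gnai2, a G-protein subunit (distance 0.0766), Arhgef4 (0.0786) and Gm20518 (0.0859), where the median distance of all genes was 0.428. Closest to Nrgn were Cspg5 (0.0529), Cdk16 (0.0555) and Sh3bgrl3 (0.0633), and closest to Neurod6 were Kidins220 (0.0799), Banf1 (0.105) and Dpy30 (0.109). Gnai2 and Arhgef4 had log2FC of 0.60 and 0.70. Only genes with a mean of at least 20 counts were compared, so Slc17a6, Neurod2 and Tbr1 could not appear. None of Slc17a7, Nrgn and Neurod6 was among the 3 closest genes of another of them.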

How the data were processed

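Raw read counts per gene were deposited for 8 libraries (6m and 24m, n = 4 each). According to the methods and labels, the authors mapped direct RNA reads (MinION, R9.4 flow cell) to GRCm39 with minimap2 2.24 and counted them with featureCounts. Strand, overlap and multi-mapping settings are not given in the sources used here. The labels describe a poly(A) cDNA kit, and the methods were followed. The authors' filter, quantile and row-wise median normalization and DESeq2 came later.

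Of 22430 identifiers, 22281 matched GENCODE vM39 (GRCm39), and 149 stayed in the library sizes. R 4.3.3, edgeR 4.0.16 (quasi-likelihood test, TMM, mean count over 5, age as the only term), limma 3.58.1, DESeq2 1.42.0 and BLAST+ 2.17.0 were used, and the fits were tested on simulated data. Standard errors came from the log2FC and the F statistic. Shares and ratios were compared by exact permutation over 70 assignments. Named genes were the 6 members, up to 3 changed genes of largest absolute log2FC per list, Slc17a8, Neurod1, Eomes and the closest profiles, and other list genes were named after their values were seen. The members and lists were chosen with earlier results of these data known. Some listed genes are not reported here. Each library is 1 mouse.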

Additional observations from a re-analysis of the deposited data

Results flagged for a closer look

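Of the 28 groups of 4 libraries examined for a library far from the others, 1 was past the limit, where chance gives about 1 in 20. The library of young adult replicate 2 held 573152 counts on genes, against 818963 to 843706 in the other young adult libraries, and its gap to the nearest of them was 0.909 of the range of the group, past Dixon's 95% limit for 4 values. In this shallowest library, Slc17a7 (479 CPM) and Neurod2 (7.23 CPM) had their lowest young adult levels, and Neurod6 (38.0 CPM), Tbr1 (25.3 CPM) and Nrgn (1869.7 CPM) their highest. Without it, Slc17a7 was 0.54 higher on the log2 scale and under the minimum of 0.58, and Tbr1 was 1.01 higher.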

How the results depend on the processing

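Of the 9375 genes tested, 1359 changed, and the count was between 989 and 1594 when 1 library was left out. DESeq2 called 834, of which 832 were among the 1359. The number of members called was 2 (Slc17a7 and Tbr1), 1 with DESeq2 and with limma-voom after quantile normalization (Slc17a7), and 3 with library sizes alone, no filter or filterByExpr, which left Slc17a6 untested. Leaving out 1 library gave between 0 and 3, namely Slc17a7 alone without young adult replicate 1, 3 or 4 or aged replicate 4, Tbr1 alone without young adult replicate 2, none without aged replicate 2 or 3, and both with Neurod2 without aged replicate 1.

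The same replicate numbers do not pair the samples, since the correlations of the deviations of same-numbered libraries were 0.065, -0.010, 0.0051 and -0.16, and not every library correlated best with its own number. With the replicate number as a block, 1308 genes changed, of which 1254 were among the 1359, and 0 members were called. Under this block Slc17a7 had a log2FC of 0.57 (padj = 3.37e-05 by edgeR's quasi-likelihood test), under the minimum, Tbr1 had padj = 0.053, and Neurod6 turned to -0.031. The difference in the transporter share was 0.193 to 0.924 percentage points under the alternatives, and its exact test did not pass with any 1 library left out, whereas the test of 4 same-numbered pairs has too few pairs to pass.

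Directions turned only for values near 0 or in single settings. The log2FC of Neurod6 was -0.0099 with DESeq2, -0.057 with limma-voom and -0.10 to 0.14 with 1 library left out, and that of Slc17a6 was -0.12 with limma-voom and -0.17 to 0.40 with 1 library left out. Relative to pan-neuronal genes, the difference of 0.49 for Slc17a7 was seen against the sum alone, with 0.02 against the median and -0.11 against Snap25. Against the sum, leaving out 1 library gave -0.56 to 0.29 for Slc17a6 (above 0 without aged replicate 1). For Nrgn it gave -0.064 to 0.0039 (above 0 without young adult replicate 2, aged replicate 1 or aged replicate 4), and for Neurod6 -0.24 to 0.021 (above 0 without young adult replicate 2). The cause of these shifts was not tested. Depth limits Slc17a6 and the transcription factors most, with 31 to 110 counts per age.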
